A study of Mus musculus with 10 samples.

Results

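The islets of the pancreas read the state of the body through receptors that couple to heterotrimeric G proteins, and 49 such receptors for hormones, transmitters and other signals were compared between islets of NZO and C3H mice. One probe set stood for each gene, the brightest by mean over the 10 arrays among those annotated to that gene alone, and 43 of the 49 receptors were measured among 19938 genes. Adra2a, Adra2b, Adrb1, Adora1, Adora2a and Adora2b had no probe set of their name and were not analysed here. The receptors were grouped by the G protein family to which each is mainly known to couple, with 10 measured receptors of 13 listed for Gs, 18 of 21 for Gi and 13 of 13 for Gq, and Gprc5b and Gprc5c as orphans.

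Expression was measured on 5 arrays of NZO/Hl islets and 5 arrays of C3HeB/FeJ islets. NZO mice are prone to obesity and diabetes, and C3H is the other strain of the comparison. All mice were males aged 6 weeks fed after weaning, at 21 days, on a high-fat diet that gave 45% of energy as fat, and the islets were kept overnight in medium with 10 mM glucose before RNA extraction. All values are log2 expression values, and each difference is NZO minus C3H with a standard error (SE) from limma.

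In beta cells, receptors coupled to Gs raise cyclic AMP and amplify glucose-induced insulin secretion. Receptors coupled to Gi lower cyclic AMP, open potassium channels and restrain secretion, and those coupled to Gq release calcium from internal stores and activate protein kinase C. The incretin receptors, the somatostatin and galanin receptors and the muscarinic receptor Chrm3 are textbook examples of these 3 routes. Other receptors of the list act mainly on alpha or delta cells, on vessels or on nerves.

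The islet hormone genes were bright in both strains, with Ins2 at 12.45 ± 0.15 in NZO and 12.33 ± 0.07 in C3H, and Gcg at 13.21 ± 0.12 in NZO and 13.25 ± 0.06 in C3H (SD, n = 5 each). Markers of other cells differed between the arrays. The mean of 20 acinar genes, which encode digestive enzymes and their partners, was 9.92 to 10.55 on NZO replicates 1 to 3, 12.02 and 11.85 on NZO replicates 4 and 5, and 8.19 to 9.06 on the C3H arrays. The mean of 16 beta cell genes was 10.37 to 11.06 in NZO, lowest on replicates 4 and 5, and 11.01 to 11.10 in C3H. That of 7 delta and PP cell genes was 8.75 to 9.06 in NZO and 9.57 to 9.98 in C3H, and that of 6 alpha cell genes 9.39 to 9.57 in NZO and 9.74 to 9.83 in C3H. On NZO replicates 4 and 5 the means of 12 macrophage genes (8.67 and 8.86), 8 duct genes (8.86 and 8.95) and 10 stellate and stromal genes (9.08 and 9.11) were the highest of all arrays. The C3H arrays reached at most 7.76, 8.06 and 8.25 in these 3 lists, in the same order. Whole islets were measured, so fewer cells of a type and less RNA per cell cannot be told apart. Of the 43 receptors, 35 lay above the dim level in both strains, 4 in 1 strain and 4 in neither. The dim level was the 95th percentile of the strain means of 1194 olfactory and vomeronasal receptor genes, 6.33 in NZO and 6.38 in C3H, and no fold is given for a receptor below it in either strain.

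With all 10 arrays and no covariate, receptors differed between the strains in both directions, in each of the Gs, Gi and Gq groups. Of the 43 receptors, 14 passed a Benjamini-Hochberg adjusted p of 0.05 in limma, or 32.6%, where 10.1% of all genes tested did. Among them 7 were higher in NZO (Oxtr, Sstr3, Gprc5c, Vipr2, Ptger4, Sstr1 and Avpr1b), where 5.47% of all genes were higher, and 7 were lower (Casr, Galr1, Vipr1, Chrm4, Gipr, Ghsr and Cnr1), where 4.61% of all genes were lower. The NZO and C3H arrays did not overlap in 13 receptors, or 30.2%, against 9.14% of all genes. The 2 sets differ in brightness, with 4 of 43 receptors and 5138 of 19938 genes below the dim level in both strains. Among genes above the 25th percentile of brightness, 35.9% of 39 receptors and 13.9% of genes passed. Above the median, 56.2% of 16 receptors and 17.2% of genes did. The receptors were also chosen with earlier results of these data known. The 3 receptors that differed by at least 1 log2 unit were Oxtr, at 1.70, Casr, at -1.12, and Galr1, at -1.05. Without NZO replicates 4 and 5, 4 receptors were higher (Oxtr, Sstr3, Gprc5c and Ptger4) and 3 lower (Casr, Galr1 and Chrm4), or 16.3%, where 5.54% of all genes passed.

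By coupling, 2 Gs receptors were higher and 2 lower, 2 Gi receptors higher and 3 lower, and 2 Gq receptors higher and 2 lower. The shares called were 40% of 10 Gs, 27.8% of 18 Gi and 30.8% of 13 Gq receptors, where 10.1% of all genes were called. The Gs calls depended most on the setting. Without NZO replicates 4 and 5, Ptger4 (limma adjusted p = 0.0462) was the only Gs receptor called, and none was called lower. With the acinar or the beta cell score as a covariate, no Gs receptor was called. The shares of all genes called in these 3 settings were 5.54%, 1.12% and 3.27%. The median difference was -0.02 for Gs, -0.02 for Gi and -0.01 for Gq receptors, beside -0.02 over all genes tested. The median size of the difference, without its sign, was 0.08 for Gs, 0.19 for Gi and 0.22 for Gq receptors, and 0.10 over all genes. The coupling groups were not tested against each other.

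**Figure D1:**
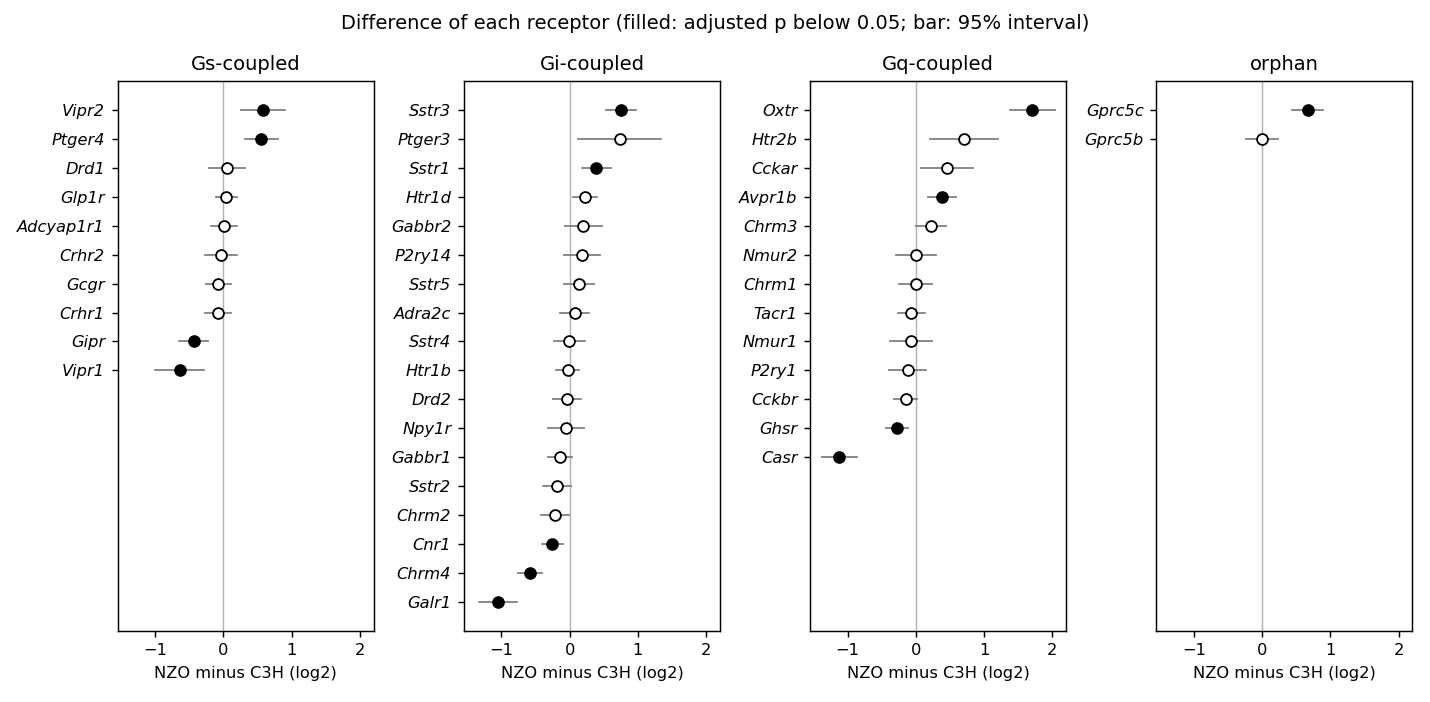
NZO minus C3H difference (log2) of each of the 43 measured receptors by coupling group, with its 95% interval from limma and with filled points for an adjusted p below 0.05. In the Gs, Gi and Gq groups filled points lie on both sides of 0, and Oxtr at 1.70 and Casr at -1.12 are the ends of the whole set.

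Among Gs-coupled receptors, the incretin receptor Gipr, the receptor of glucose-dependent insulinotropic peptide, was lower in NZO. It read 7.83, 8.04, 7.96, 7.53 and 7.70 on NZO replicates 1 to 5, against 8.35, 8.35, 8.24, 8.21 and 8.10 on C3H replicates 1 to 5. The strains did not overlap, and the NZO values were lowest on replicates 4 and 5. The difference was -0.44 (SE 0.10, 1.36-fold lower, limma adjusted p = 0.0103), -0.31 without NZO replicates 4 and 5 (limma adjusted p = 0.0932) and -0.08 (SE 0.18) with the acinar score as a covariate.

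Glp1r, which binds the incretin GLP-1 and is the target of the GLP-1 drugs, was not called. Its NZO values were 13.57, 13.68, 13.53, 13.44 and 13.40, and its C3H values 13.47, 13.51, 13.43, 13.53 and 13.49. The strains overlapped, with a difference of 0.04 (95% interval -0.11 to 0.19, limma adjusted p = 0.838). The probe set sat near the ceiling of the arrays, whose brightest genes read 13.96 to 14.05, and differences can be compressed there. The glucagon receptor Gcgr also overlapped, at 7.57, 8.01, 7.70, 7.61 and 7.71 in NZO and 7.84, 7.70, 7.79, 7.81 and 7.85 in C3H. Its difference was -0.08 (95% interval -0.26 to 0.11, limma adjusted p = 0.711).

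The receptors shared by vasoactive intestinal peptide (VIP) and PACAP, both nerve-derived peptides that raise cyclic AMP, differed in opposite directions. Vipr1 was 9.19, 9.24, 8.95, 8.40 and 8.40 in NZO, against 9.61, 9.32, 9.75, 9.26 and 9.45 in C3H, with NZO replicates 4 and 5 far below the other NZO arrays. It was 1.56-fold lower in NZO (-0.64, SE 0.17, limma adjusted p = 0.0237). A second, dimmer probe set of Vipr1 differed by -0.44 (SE 0.09, limma adjusted p = 0.0131) in a fit over all probe sets, where the brighter one, at -0.64 (SE 0.18), was not called (limma adjusted p = 0.0653). The value was -0.35 without NZO replicates 4 and 5 (limma adjusted p = 0.152), and 0.13 (SE 0.26), on the other side of 0, with the acinar score as a covariate. The call also ended without NZO replicate 4 or 5 or C3H replicate 1 or 3 alone (limma adjusted p up to 0.0703).

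Vipr2 was 7.47, 6.79, 6.74, 7.54 and 6.83 in NZO, against 6.47, 6.42, 6.41, 6.68 and 6.49 in C3H. NZO replicates 1 and 4 stood above the other 3 NZO arrays, and the lowest NZO array lay just above the highest C3H array. The difference was 0.58 (SE 0.15, 1.5-fold higher, limma adjusted p = 0.0234), and it lost its call without NZO replicates 1 or 4 or C3H replicates 1, 2, 3 or 5 (limma adjusted p up to 0.0612). It was 0.51 without NZO replicates 4 and 5 (limma adjusted p = 0.0685). Adcyap1r1, the receptor specific for PACAP, was 7.26 ± 0.17 in NZO and 7.25 ± 0.09 in C3H (SD, n = 5 each) and was not called.

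Ptger4, a receptor of prostaglandin E2, was higher in NZO. Its values were 7.46, 7.12, 7.50, 7.82 and 7.74 in NZO and 7.02, 6.96, 7.06, 6.87 and 6.97 in C3H. No NZO array reached down to the C3H range, and NZO replicates 4 and 5 were highest. The difference was 0.55 (SE 0.11, 1.47-fold higher, limma adjusted p = 0.00543). It stayed past the threshold without NZO replicates 4 and 5 (0.39, limma adjusted p = 0.0462), whereas it was -0.02 (SE 0.16) with the acinar score as a covariate. The dopamine receptor Drd1 and the receptors of corticotropin-releasing hormone and the urocortins, Crhr1 and Crhr2, differed by -0.08 to 0.05 and were not called.

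Among Gi-coupled receptors, Galr1, through which the neuropeptide galanin inhibits insulin release, was lower in NZO. It read 8.39, 7.85, 8.24, 8.23 and 7.83 on the NZO arrays, against 9.10, 9.43, 9.34, 8.91 and 8.98 on the C3H arrays. Every NZO array lay below every C3H array, and NZO replicates 4 and 5 read like replicates 3 and 2. The difference was -1.05 (SE 0.13, 2.07-fold lower, limma adjusted p = 0.000125). It was -1.12 to -0.98 when any 1 array was left out, with a call each time, and -0.97 (SE 0.27, limma adjusted p = 0.154) with the acinar score as a covariate.

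The somatostatin receptors, which mediate the inhibition of insulin and glucagon release by delta cells, did not move together. Sstr3, the subtype of primary cilia, was 9.30, 9.64, 9.37, 9.02 and 9.09 in NZO, against 8.43, 8.62, 8.54, 8.57 and 8.52 in C3H. The C3H arrays were close together and all lay below the NZO arrays, of which replicates 4 and 5 were lowest. The difference was 0.75 (SE 0.11, 1.68-fold higher, limma adjusted p = 0.000338), 0.90 without NZO replicates 4 and 5 and 1.28 (SE 0.16) beside the acinar score. It passed under all 19 alternatives.

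Sstr1 was 6.57, 6.29, 6.38, 6.65 and 6.81 in NZO and 6.16, 6.11, 6.02, 6.17 and 6.29 in C3H. The lowest NZO array and the highest C3H array almost touched, and the C3H mean lay below the dim level. The difference was 0.39 (SE 0.10, limma adjusted p = 0.0197), and its call ended without NZO replicate 4 or 5 or C3H replicate 3 (limma adjusted p up to 0.0602). It was 0.26 without both NZO replicates 4 and 5 (limma adjusted p = 0.181) and 0.05 (SE 0.18) with the acinar score as a covariate. Sstr2, the subtype known to act on alpha cells, was 7.11 ± 0.18 in NZO and 7.30 ± 0.12 in C3H (SD, n = 5 each), a difference of -0.19 (SE 0.09, limma adjusted p = 0.276). Sstr5, a subtype of beta cells in mice, differed by 0.13 (SE 0.10) and Sstr4 by -0.01 (SE 0.11), and neither was called.

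Chrm4, a muscarinic acetylcholine receptor that couples to Gi, was lower in NZO. The NZO arrays gave 6.89, 7.22, 7.23, 6.97 and 7.07, and the C3H arrays 7.63, 7.73, 7.58, 7.65 and 7.68. The strains were well apart, and the C3H arrays spanned little. The difference was -0.58 (SE 0.08, 1.49-fold lower, limma adjusted p = 0.000329). It was called with each array left out and without NZO replicates 4 and 5 (-0.54), but not with the acinar score as a covariate (-0.44, SE 0.17, limma adjusted p = 0.460). Chrm2, its relative with the same coupling, was 6.38 ± 0.20 in NZO and 6.59 ± 0.10 in C3H (SD, n = 5 each) and was not called (limma adjusted p = 0.211).

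Cnr1, a receptor of endocannabinoids, was 6.16, 6.23, 6.21, 6.15 and 6.15 in NZO and 6.28, 6.51, 6.47, 6.47 and 6.43 in C3H. The NZO mean lay below the dim level, and the strains did not overlap. The difference was small, -0.25 (SE 0.07, limma adjusted p = 0.0309), and leaving out NZO replicate 1, 3, 4 or 5 or C3H replicate 2, 3 or 5 ended its call (limma adjusted p up to 0.0857). Without both NZO replicates 4 and 5 it was -0.23 (limma adjusted p = 0.195). Both subunits of the GABA-B receptor, through which GABA from beta cells acts, overlapped between the strains. Gabbr2, the subunit that couples to the G protein, was 11.38 ± 0.23 in NZO and 11.18 ± 0.24 in C3H (SD, n = 5 each), and Gabbr1, which binds GABA, differed by -0.14 (SE 0.08).

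Ptger3, another receptor of prostaglandin E2, differed by as much as Sstr3 without passing. It read 6.72, 6.32, 6.76, 8.25 and 7.72 on the NZO arrays, against 6.41, 6.62, 6.40, 6.50 and 6.17 on the C3H arrays. NZO replicates 4 and 5, which also had the highest macrophage, duct and stromal scores, were the arrays far above the C3H range. The difference was 0.73 (SE 0.28, limma adjusted p = 0.133), 0.18 without those arrays and -0.95 with the acinar score as a covariate. The part of macrophage, duct and stromal RNA in it was not tested. Ptger3 passed without NZO replicate 2 or with array weights. The remaining Gi-coupled receptors, Adra2c, Drd2, Htr1b, Htr1d, Npy1r and P2ry14, differed by -0.05 to 0.22 and were not called, of which Htr1d and Npy1r lay below the dim level in both strains.

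Among Gq-coupled receptors, the oxytocin receptor Oxtr was higher in NZO by more than any other receptor measured. Its values were 11.26, 10.83, 11.28, 11.30 and 10.75 in NZO, against 9.06, 9.74, 9.68, 9.12 and 9.29 in C3H. A gap of about a log2 unit separated the strains, and NZO replicates 4 and 5 lay at the top and at the bottom of the NZO range. The difference was 1.70 (SE 0.15, 3.26-fold higher, limma adjusted p = 5.51e-06), and between 1.54 and 1.82 under all 19 alternatives, each of which called it. The related vasopressin receptor Avpr1b was 7.98, 8.05, 7.58, 8.03 and 7.91 in NZO and 7.52, 7.64, 7.63, 7.38 and 7.45 in C3H. NZO replicate 3 lay within the C3H range, so Avpr1b was the 1 called receptor whose strains overlapped. The difference was 0.38 (SE 0.10, 1.31-fold higher, limma adjusted p = 0.0192), and it lost its call without NZO replicate 4 or C3H replicate 5 (limma adjusted p up to 0.0548) and without NZO replicates 4 and 5 (0.35, limma adjusted p = 0.131).

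The calcium-sensing receptor Casr, which responds to extracellular calcium and is known from the parathyroid gland and from islets, was lower in NZO. It read 9.70, 9.77, 9.24, 9.12 and 9.40 on the NZO arrays, against 10.73, 10.40, 10.62, 10.49 and 10.62 on the C3H arrays. The strains were far apart relative to the spread within each. The difference was -1.12 (SE 0.12, 2.18-fold lower, limma adjusted p = 2.89e-05) and -1.0 without NZO replicates 4 and 5 (limma adjusted p = 0.000238). With the acinar score as a covariate it was -0.74 (SE 0.22, limma adjusted p = 0.211), and with the beta cell score -0.76 (SE 0.13, limma adjusted p = 0.00343). The ghrelin receptor Ghsr, in mouse islets a receptor of delta cells, was 7.23, 7.44, 7.41, 7.39 and 7.40 in NZO and 7.70, 7.74, 7.62, 7.69 and 7.48 in C3H. Its values did not overlap between the strains, but by a narrow margin. The difference was -0.28 (SE 0.08, 1.21-fold lower, limma adjusted p = 0.0316), and 7 of the 10 arrays, NZO replicates 1, 3, 4 and 5 and C3H replicates 1, 2 and 3, ended the call when left out (limma adjusted p up to 0.0907). Without both NZO replicates 4 and 5 it was -0.29 (limma adjusted p = 0.120). The part of the lower delta and PP cell score in the Ghsr, Galr1 and Casr differences was not tested.

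Chrm3, the main muscarinic receptor of beta cells, was 10.14, 10.17, 10.03, 9.69 and 9.90 in NZO and 9.85, 9.77, 9.86, 9.53 and 9.82 in C3H. The strains overlapped, and the lowest NZO arrays were again replicates 4 and 5. The difference was 0.22 (95% interval 0.00 to 0.43, limma adjusted p = 0.224), 0.34 without those 2 arrays (limma adjusted p = 0.0656) and 0.48 with the beta cell score as a covariate (SE 0.12, limma adjusted p = 0.0479), the 1 alternative of 19 that called it. P2ry1, an ADP receptor of beta cells, gave 9.07, 8.98, 9.06, 8.64 and 8.54 in NZO and 8.97, 9.26, 9.08, 8.72 and 8.88 in C3H. It was not called (-0.12, 95% interval -0.39 to 0.14, limma adjusted p = 0.667), and NZO replicates 4 and 5 were below every other array.

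The serotonin receptor Htr2b, known in mice for its role in beta cell growth in pregnancy, and Cckar, the cholecystokinin receptor of acinar cells in rodents, followed the pattern of Ptger3. Htr2b was 6.51, 5.85, 6.49, 7.49 and 7.21 in NZO, against 5.74, 6.01, 5.97, 6.12 and 6.17 in C3H. Cckar was 6.94, 6.56, 6.77, 7.76 and 7.28 in NZO, against 6.48, 6.69, 6.66, 6.80 and 6.41 in C3H. In both, NZO replicates 4 and 5 were the 2 highest arrays of all and NZO replicate 2 lay within the C3H range. For Cckar, NZO replicate 3 lay within that range as well. The differences of Htr2b (0.71, SE 0.23, limma adjusted p = 0.0726) and Cckar (0.45, SE 0.18, limma adjusted p = 0.140) did not pass, and without those arrays they were 0.28 and 0.15. Both passed without NZO replicate 2 or with array weights. The remaining Gq-coupled receptors, Chrm1, Cckbr, Nmur1, Nmur2 and Tacr1, differed by -0.15 to 0.00 and were not called. Of the 29 receptors that were not called, 26 had a 95% interval within 0.5 log2 units of 0 on both sides, all except Ptger3, Htr2b and Cckar.

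Of the orphan receptors of the retinoic acid-induced family, Gprc5c was higher in NZO and Gprc5b was not called. Gprc5c read 9.03, 9.27, 9.10, 9.12 and 9.42 on the NZO arrays, against 8.55, 8.58, 8.66, 8.19 and 8.63 on the C3H arrays. The strains did not overlap, and C3H replicate 4 was far below the other C3H arrays. The difference was 0.66 (SE 0.10, 1.59-fold higher, limma adjusted p = 0.000751), and it was 0.58 without C3H replicate 4. A second, dimmer probe set of Gprc5c differed by 0.53 (SE 0.08, limma adjusted p = 0.00259 over all probe sets). Gprc5b was 7.76 ± 0.18 in NZO and 7.76 ± 0.20 in C3H (SD, n = 5 each).

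**Figure D2:**
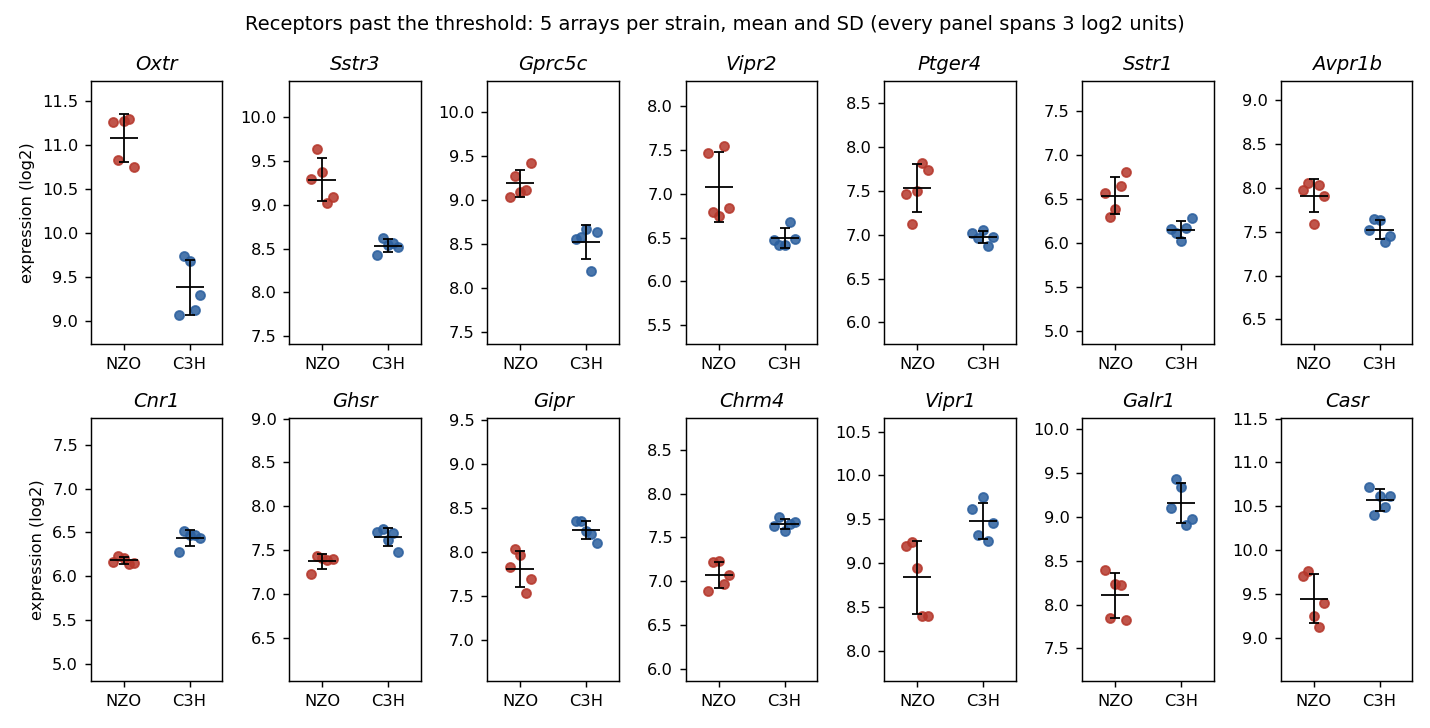
Log2 expression on the 5 NZO arrays and the 5 C3H arrays of each receptor past the threshold, with the mean and SD as a bar, and with 3 log2 units on every vertical axis. The top row holds the 7 receptors higher in NZO and the bottom row the 7 lower in NZO, and the points of the strains overlap in Avpr1b alone.

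With the acinar score as a covariate beside strain, Oxtr and Sstr3 still passed in limma, or 4.65% where 1.12% of all genes did. No receptor passed as lower. At an unadjusted limma p below 0.05, 4 receptors were lower (Galr1, Casr, Chrm4 and Ptger3) and 4 higher. The share of all genes at that unadjusted p was not computed, so these counts have no background beside them and are no result about the receptors. The acinar covariate multiplies the SE of a strain difference by 2.07 before any change in the residual spread, because the score itself differed between the strains. Galr1 (-0.97), Chrm4 (-0.44), Gprc5c (0.55), Casr (-0.74), Avpr1b (0.34), Ghsr (-0.33), Vipr2 (0.36) and Cnr1 (-0.14) kept their sign without passing. Vipr1 (0.13) and Ptger4 (-0.02) turned to the other sign, and Gipr (-0.08) and Sstr1 (0.05) were near 0. With the beta cell score as a covariate, which multiplies the SE by 1.51, 4 receptors were higher (Oxtr, Sstr3, Gprc5c and Chrm3) and 3 lower (Casr, Galr1 and Chrm4), or 16.3% where 3.27% of all genes passed.

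**Figure D3:**
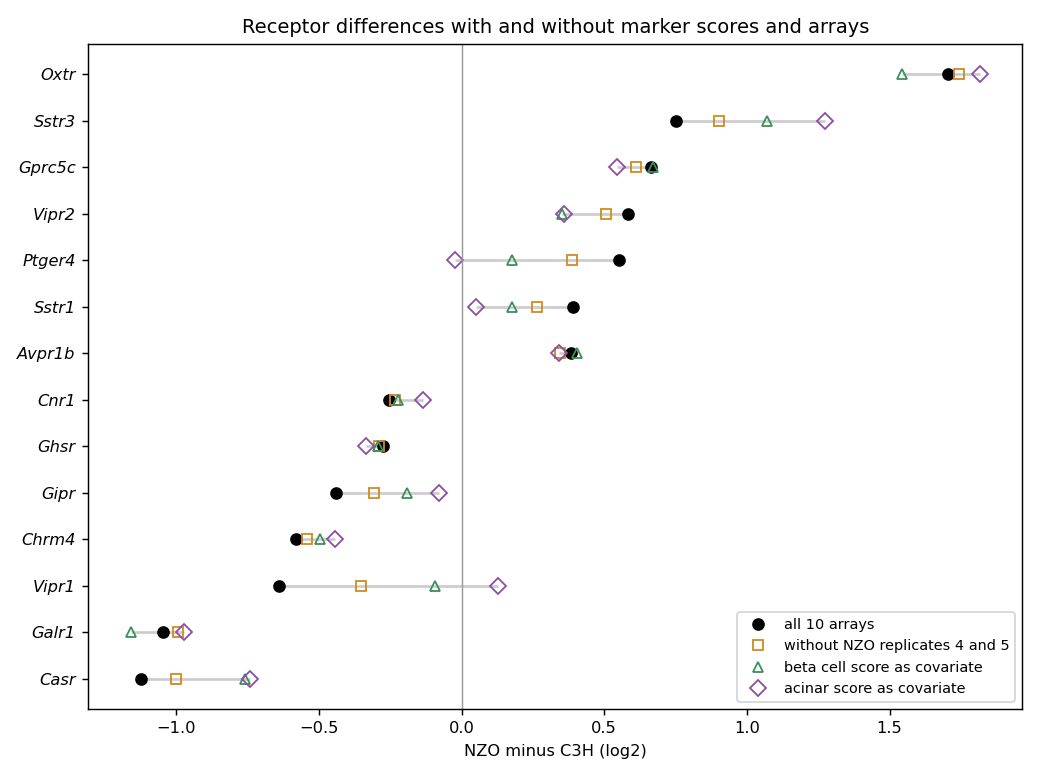
NZO minus C3H difference (log2) of the 14 called receptors with all 10 arrays, without NZO replicates 4 and 5, and with the beta cell or the acinar score as a covariate. The 4 symbols of Oxtr lie between 1.54 and 1.82, whereas those of Vipr1 run from -0.64 to 0.13.

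**Figure D4:**
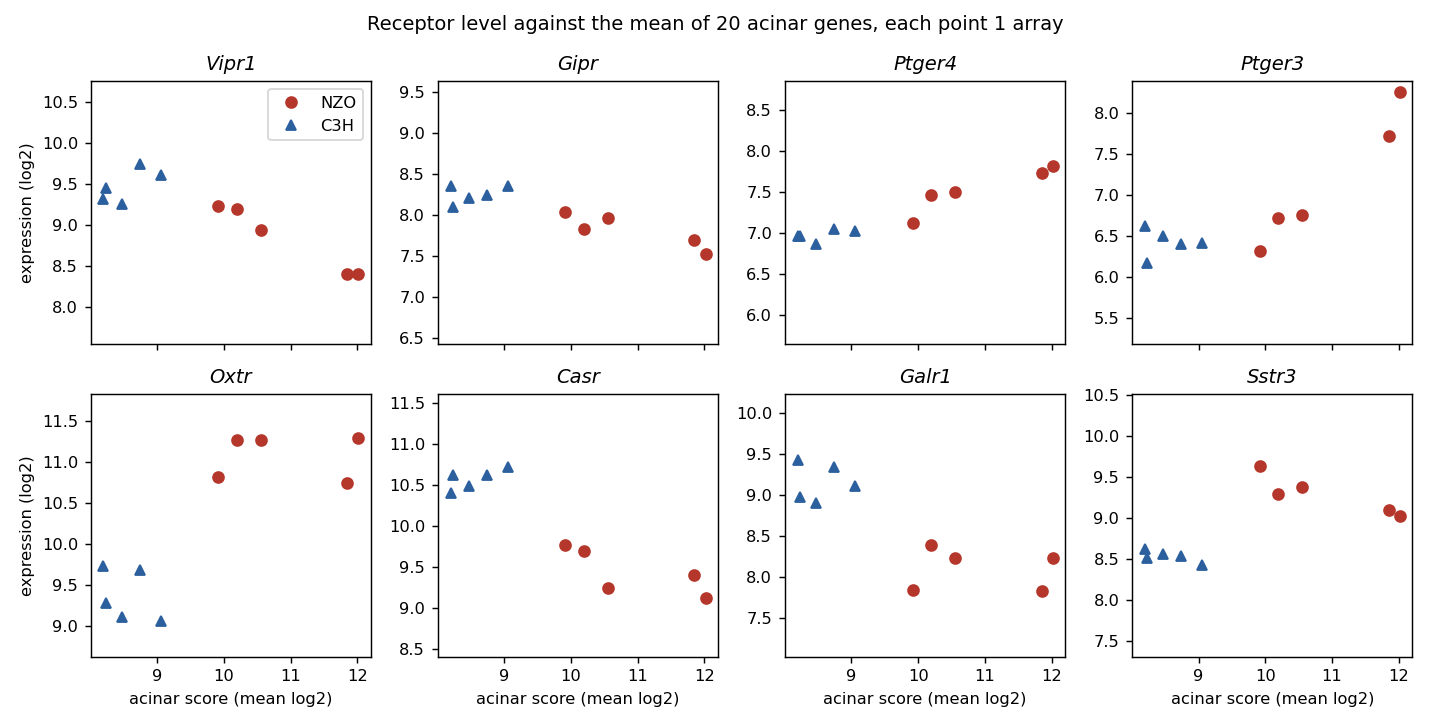
Log2 expression of 8 receptors against the acinar score, the mean log2 value of 20 acinar genes, with 1 point per array. On the 5 NZO arrays Vipr1 and Gipr are lowest and Ptger4 and Ptger3 highest where the score is 11.85 and 12.02, while Oxtr is highest on 1 of those arrays and lowest on the other.

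Several ligands of these receptors are made within the islet or by its nerves, and of 26 peptide ligand genes 2 were higher (7.69%, against 5.47% of all genes) and 6 lower in NZO (23.1%, against 4.61%). Their median difference was -0.07. The somatostatin gene Sst was 13.12 ± 0.26 in NZO and 13.87 ± 0.04 in C3H (-0.75, SE 0.11, limma adjusted p = 0.000379), while Sstr3 and Sstr1 were higher. Sst lay near the ceiling of the arrays in C3H, where differences can be compressed, so its difference may be understated, which was not tested. Of the lower ligand genes, Sst and Ppy are also in the delta and PP cell list above, and Ucn3 is in the beta cell list. For these genes too, fewer cells of a type and less RNA per cell cannot be told apart. Vip, the neuropeptide ligand of both VIP receptors, was 6.78 ± 0.39 in NZO and 8.25 ± 0.62 in C3H (-1.46, SE 0.25, limma adjusted p = 0.00165; SD, n = 5 each). The tachykinin precursor Tac1 (-2.03, SE 0.26) and Ucn3, the beta cell ligand of Crhr2 (-1.12, SE 0.19), were lower, while their receptors Tacr1 (-0.07) and Crhr2 (-0.04) were not called. The ligand genes of the receptors with the largest differences were not called, with Oxt at -0.07 (SE 0.09) and Gal, below the dim level in both strains, at -0.21 (SE 0.15). Neither were those of Avpr1b (Avp, -0.05), Gipr (Gip, -0.07) and Ghsr (Ghrl, -0.36, SE 0.13, limma adjusted p = 0.113), nor Cort (-0.07), the cortistatin gene. Adcyap1, which encodes PACAP, differed by -0.29 (SE 0.09, limma adjusted p = 0.0511).

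Among 27 measured G protein subunit genes, 1 was higher in NZO and 2 were lower (median difference -0.08), or 11.1%, near the 10.1% of all genes. Gnai1, an inhibitory alpha subunit, was 8.21 ± 0.12 in NZO and 8.73 ± 0.11 in C3H (-0.52, SE 0.08, limma adjusted p = 0.000777). Gna14, an alpha subunit of the Gq family, was 7.81 ± 0.50 in NZO and 7.01 ± 0.14 in C3H (0.80, SE 0.19, limma adjusted p = 0.0121; SD, n = 5 each). Its NZO values were highest on replicates 4 and 5 (8.27 and 8.20), and NZO replicate 2 (7.02) lay within the C3H range. The gamma subunit Gng3, below the dim level in both strains, differed by -0.43 (SE 0.08). The other Gi alpha subunits Gnai2 (-0.08) and Gnai3 (-0.09) and the widely expressed Gq alpha subunits Gnaq (-0.02) and Gna11 (-0.11) were not called, and Gnas, the alpha subunit of Gs, was not analysed here. Of 26 genes for arrestins, receptor kinases, RGS proteins and other regulators, 3 were higher in NZO and 3 were lower, or 23.1%, against 10.1% of all genes (median difference 0.05). Rgs2, which speeds the shut-off of Gq, was lower (-0.62, SE 0.12, limma adjusted p = 0.00478), as was Gpsm2 (-0.35, SE 0.09), which binds inhibitory alpha subunits. The arrestin gene Arrb1 (0.39, SE 0.10) and Rgs19 (0.34, SE 0.09) were higher. Over these 3 lists, 17 genes passed, 10 without NZO replicates 4 and 5 and 1 with the acinar score as a covariate. The share of all genes that passed fell as well, from 10.1% to 5.54% and 1.12% in the same settings.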

How the data were processed

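Total RNA, 150 ng per array and with an integrity number above 8, was hybridised to a whole-transcript Affymetrix mouse array, per the labels' protocols. The authors deposited log2 expression values, which they had made with RMA in Expression Console, per the submitters' processing notes. The software version and the genome build: not given in the sources used here. RMA gives no detection call. Differences can be compressed at both ends of the brightness scale. Nothing was normalized again. Of the 35556 probe sets, 21789 were annotated to 1 gene symbol, 1621 to several and 12146 to none, and Entrez IDs tied 21698 of the first kind to genes of GRCm38.p6. Probe sequences were not used, so each probe set was taken to bind RNA of both strains alike.

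All 19938 genes were fitted together, without a filter on dim genes, using limma 3.58.1 (lmFit, eBayes) under R 4.3.3. Tests were two-sided and p-values were adjusted by Benjamini-Hochberg over all of these genes. Each SE or interval belongs to the limma difference, and each SD covers 5 arrays. The fit was tested on simulated data. The number of arrays limits the precision. Replicates were numbered in accession order, which pairs no arrays. Most sample titles end in a pair of numbers, with a single one for NZO replicate 4 and a range for NZO replicate 5. No label says what these count. Whether each array holds RNA of separate animals is not stated, and the p-values then measure only the spread between these samples, which may be technical. No batch is labelled.

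The receptors, coupling groups, marker lists and alternatives were chosen with earlier results of these data known. All measured receptors are accounted for. Those called, and Glp1r, Gipr, Gcgr, Sstr3, Chrm3, Galr1, Ghsr, P2ry1 and Casr, are given in full, with Ptger3, Htr2b and Cckar added after their values were seen. Of the ligand, subunit and regulator lists, up to 4 called genes with the smallest p and the ligands of called receptors are named, and other members stand for their values only. The alternatives were brightness filters, the mean over probe sets, median centring, a robust intensity trend, array weights, the acinar or beta cell score as a covariate, and left-out arrays.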

Additional observations from a re-analysis of the deposited data

Results flagged for a closer look

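Of 86 groups of 5 arrays, 43 receptors in each strain, 8 held an array far from the other 4 by Dixon's test, where chance gives about 1 in 20. C3H replicate 4 held 6 of them. There Gprc5b was 7.41 against 7.83 to 7.88 on the other C3H arrays, Gprc5c 8.19 against 8.55 to 8.66 and Chrm3 9.53 against 9.77 to 9.86. On the same array Chrm1 was 7.83 against 7.19 to 7.37, Crhr1 7.66 against 7.25 to 7.36 and Vipr2 6.68 against 6.41 to 6.49. On NZO replicate 1, Gprc5b was 8.08 against 7.64 to 7.72 on the others of its strain, and Ghsr 7.23 against 7.39 to 7.44. C3H replicate 4 also had the highest median over all probe sets of the 10 arrays, 7.05.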

How the results depend on the processing

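Oxtr and Sstr3 were called under all 19 alternatives, and Galr1, Casr, Gprc5c and Chrm4 under each in which they were tested except the acinar covariate. With the acinar covariate 223 of all genes passed, and 2 receptors were higher and 0 lower in limma (4.65% of receptors, against 1.12% of all genes). In that fit 1 gene of the ligand, subunit and regulator lists passed, Vipr1 was 0.13 and Ptger4 -0.0215. Its medians were -0.073 for all receptors, -0.116 for Gi and -0.121 for Gq. With the beta cell score the counts were 652 genes, 4 receptors higher, 3 lower (16.3% of receptors, against 3.27% of all genes) and 3 list genes. Without NZO replicates 4 and 5 they were 1105, 4, 3 (16.3% of receptors, against 5.54% of all genes) and 10, and the Gq median was 0.056. Array weights gave 4125 genes, 11 receptors higher, 7 lower and 30 list genes. That was 41.9% of receptors, against 20.7% of all genes. The medians with array weights were 0.065 for all receptors, 0.064 for Gi and 0.089 for Gq. Among genes above the median brightness, 16 receptors were tested, and 4 were higher and 5 lower. That was 56.2% of these receptors, against 17.2% of all genes tested in that setting, and the Gs median was -0.26. Leaving out 1 array gave 1441 to 2701 genes, 4 to 10 receptors higher, 4 to 7 lower and 12 to 20 list genes. The share called was then 18.6% to 39.5% of receptors, against 7.23% to 13.5% of all genes. The 4 higher were without NZO replicate 4, and the 4 lower without NZO replicate 4 or 5 or C3H replicate 3. Medians then ran from -0.040 to 0.057 for all receptors, -0.051 to 0.040 for Gs, -0.063 to 0.055 for Gi and -0.062 to 0.102 for Gq. The cause of these changes was not tested. No paired analysis was run because the labels give no pairing between NZO and C3H arrays.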
